A study of Mus musculus with 8 samples.

Results

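The comparison is between 2 phosphorylated forms of RNA polymerase II in MEL cells with knockdown of Myrlin. Its members are the 4 libraries of the knockdown line out of 8 in the series, chosen by their labels: 2 made with an antibody against phosphoserine 5 (Ser5P) and 2 made with an antibody against phosphoserine 2 (Ser2P) of the carboxy-terminal domain of Rpb1, the largest polymerase subunit. MEL is a mouse erythroid leukaemia cell line, and Myrlin is the transcript of an enhancer 81 kb upstream of Myb, a transcription factor gene of blood progenitors. The knockdown genotype is labelled Myrlin KD, and the other 4 libraries, labelled dCAS control, are given beside it. The growth protocol calls the lines control and CRISPR-edited. It gives no guide, repressor domain or number of clones, and no treatment or time is named for either line. Each library came from 1M cells by CUT&Tag, in which an antibody directs a transposase that cuts and tags the chromatin around it. The labels do not say how the 2 replicates of a group were kept apart, so a p-value here covers library-to-library spread only, possibly technical in origin, and fewer cells with a mark cannot be told apart from less of it per cell.

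Polymerase that has just begun transcription carries Ser5P, placed by the kinase of the general factor TFIIH, and this form is known for its place at gene starts and over promoter-proximal pauses. Ser2P is placed by elongation kinases as polymerase moves into the gene, builds up towards the 3′ end, and is read by factors that cleave and polyadenylate the transcript. Replication-dependent histone transcripts are an exception, since they end in a stem-loop and receive no poly(A) tail.

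The deposited lists held 21574 and 24509 Ser5P peaks in KD libraries 1 and 2, and 32125 and 29372 Ser2P peaks. The background pileup recovered from each list, used here as relative depth, was 0.647 and 0.84 for Ser5P against 1.12 and 1.03 for Ser2P, so both Ser2P libraries were deeper than both Ser5P libraries. Antibody, mark and depth therefore cannot be told apart in the lists as deposited, and the main counts are also given for lists cut to equal numbers of peaks, the highest by the authors' −log10 p. The labelled cell type was checked on 10 erythroid marker genes, each taken from 1000 bp before its start to 3000 bp past its end. In all 4 KD libraries 8 had at least 200 bp under peaks there, against 49.7% of all genes. They included Gata1, Klf1, Tal1, Epor and Alas2, while the others were Slc4a1 and Hba-a1. At the promoter alone 6 were so marked, and Gata1 and Alas2 had no promoter peak. Over the whole stretch 5 of 20 myeloid, 4 of 20 lymphoid, 6 of 19 megakaryocyte and mast cell and 3 of 20 non-haematopoietic markers were so marked. Of 20 myeloid markers 12 were at 0 in all 4 libraries, as were 13 of 20 lymphoid markers, 8 of 19 megakaryocyte and mast cell markers and 10 of 20 non-haematopoietic markers. The summed bp under peaks ranged from 11773 to 13031 over the erythroid markers, 4174 to 5814 over the myeloid, 3439 to 4488 over the lymphoid, 7603 to 9096 over the megakaryocyte and mast cell and 1579 to 4795 over the non-haematopoietic lists. Within 2000 bp of the point 81 kb upstream of Myb, peaks covered 275 and 0 bp in the Ser5P KD libraries, 0 and 316 bp in the Ser2P KD libraries, 513 and 237 bp in the Ser5P controls and 302 and 0 bp in the Ser2P controls. The groups overlapped there, and peak lists give no measure of the transcript itself.

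The first question was where each mark lay along genes. Within 1000 bp of a gene 5′ end, its promoter window, lay 36.2% and 32.9% of Ser5P summits and 26.3% and 27.9% of Ser2P summits in the KD line. Ser5P was higher in both libraries, by 7.46 percentage points (means 34.5 ± 2.36 and 27.1 ± 1.15, SD, n = 2 libraries each). Elsewhere inside genes lay 38.9% and 41.3% of Ser5P summits against 45.8% and 44.9% of Ser2P summits. Up to 3000 bp past a 3′ end lay 3.88% and 3.90% of Ser5P summits against 5.15% and 4.98% of Ser2P summits. The remaining 21.1% and 21.9% of Ser5P summits and 22.7% and 22.2% of Ser2P summits were intergenic. None of the 4 shares overlapped between the antibodies, and each gave a two-sided exact permutation p of 0.333, the smallest that 2 libraries against 2 allow.

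When all 8 lists were cut to 20793 peaks, most of that separation went. The promoter share became 37.3% and 37.5% for Ser5P against 37.0% and 36.6% for Ser2P, a difference of 0.584 points. The share elsewhere inside genes became 38.03% and 38.24% against 37.99% and 38.54%, and those values overlapped. The share past 3′ ends remained separate, at 3.79% and 3.58% for Ser5P against 4.42% and 4.36% for Ser2P. The control line gave 3.31% and 3.35% against 3.99% and 3.89% for the same share, so Ser2P was higher past 3′ ends in both lines. Over the 36 ways to swap the antibody labels within lines, that order gave a two-sided exact permutation p of 0.0556, the smallest they can give. The promoter contrast was 6.38 points wider in the KD line than in the control line with lists as deposited (exact permutation p = 0.222), and 0.666 points narrower at equal length (p = 0.389).

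**Figure D1:**
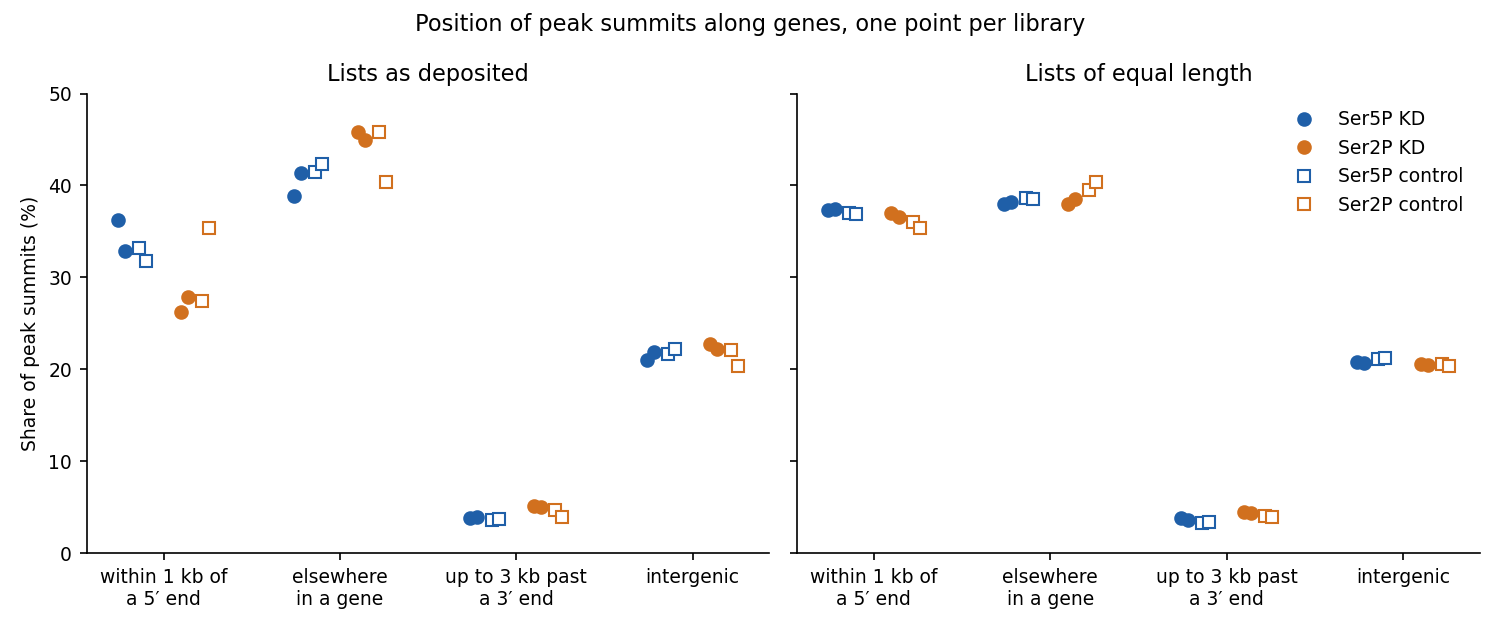
Share of peak summits (%, vertical axis) in 4 positions along genes, one point per library, with lists as deposited (left) and cut to 20793 peaks each (right). Filled circles are KD libraries and open squares are controls; the wide gap between antibodies in the promoter class on the left closes to 0.584 points on the right in the KD line.

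In the KD line Ser2P summits lay farther from gene starts and nearer to gene ends. The median distance from a summit to the nearest 5′ end was 6338.5 and 7928 bp for Ser5P against 12286 and 11291.5 bp for Ser2P. At equal list length these distances were 5805 and 5654 bp against 6289 and 6469 bp, so the difference (Ser5P minus Ser2P) went from −4655.5 to −649.5 bp and kept its direction. The median distance to the nearest 3′ end was 14820.5 and 14936 bp for Ser5P against 14132 and 13999 bp for Ser2P, a gap of 812.75 bp that was 963 bp at equal length. In the controls the 3′ distances were 15657.5 and 15881 bp for Ser5P against 14962 and 14822 bp for Ser2P. The order of the antibodies at the 3′ end was thus the same in both lines, under both list lengths, with no overlap (exact permutation p over both lines = 0.0556 in each case). At the 5′ end the controls overlapped as deposited, with 7947 and 8605 bp for Ser5P against 11830 and 7574 bp for Ser2P. With equal lists they did not, at 6120 and 5985 bp against 7001 and 7574 bp.

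Peak width depended on list length. Median widths were 533.5 and 532 bp for Ser5P against 478 and 479 bp for Ser2P as deposited, and 547 and 591 bp against 613 and 584 bp at equal length, where the groups overlapped and the mean order turned. At 14806 merged regions with a peak in all 4 KD libraries, the median covered length was 667 and 719 bp for Ser5P and 724 and 693 bp for Ser2P. Of those regions, 3268 had both Ser2P values above both Ser5P values and 2658 had the reverse. The widest Ser5P peaks present in both libraries included chr1:171501164-171504066, which overlaps Alyref2 and measured 2903 and 3002 bp, where Ser2P peaks covered 1439 and 1535 bp. The widest Ser2P peaks included chr15:63922228-63925362, in no protein-coding gene, with 3135 and 3115 bp of Ser2P against 0 and 1182 bp of Ser5P, and a peak over Kif28, a kinesin gene, at chr1:179740512-179744344, with 3833 and 3032 bp. Ranked by the narrower replicate, the widest interval of both antibodies was the same one, chr17:39843116-39846710, outside protein-coding genes.

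The shape along genes was read from 4393 isolated genes (no other protein-coding gene within 5000 bp) of at least 5000 bp, each divided into 20 equal bins. In the first bin a peak was present in 59.7% and 61.3% of genes for Ser5P and in 65.6% and 62.7% for Ser2P, so in the KD line both marks peaked at the start. In the 20th bin the shares were 4.42% and 5.26% for Ser5P against 8.74% and 7.97% for Ser2P. In the first 500 bp past the 3′ end the shares were 1.84% and 2.16% for Ser5P against 3.57% and 3.05% for Ser2P. Between 3000 and 3500 bp past the end, they were 3.03% and 3.73% for Ser5P against 8.20% and 7.28% for Ser2P. Gene bins grow with gene length, while bins past the end are fixed at 500 bp, and a wider bin meets a peak more often. Shares inside genes and past the end are therefore not comparable in level, only between antibodies within a bin.

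With equal lists (4105 genes, chosen in the same way) the order of the antibodies changed along the gene. Ser5P was higher without overlap in gene bins 3 to 5 and 9, with 7.53% and 7.55% against 6.72% and 6.82% in bin 3. Ser2P was higher without overlap in bins 7, 15 and 17 to 20, with 4.48% and 4.48% for Ser5P against 4.92% and 4.92% in bin 19, and in all 10 bins past the end. In the 11th bin the shares were 3.87% and 3.60% for Ser5P against 3.70% and 3.80% for Ser2P, and between 3000 and 3500 bp past the end they were 3.14% and 2.97% against 5.07% and 5.31%. The mean share over the 10 bins past the end, divided by the mean over gene bins 6 to 20, was 0.767 and 0.775 for Ser5P and 1.08 and 1.02 for Ser2P. As deposited this ratio was 0.756 and 0.738 against 0.924 and 0.893, and in the controls 0.632 and 0.642 against 0.809 and 0.737. Ser2P was higher without overlap in both lines at either list length (exact permutation p over both lines = 0.0556 each time). Both antibodies had a higher ratio in the KD line than in the control line, without overlap at either list length. Genes entered this profile only through a peak in a KD library, including peaks past the end, and never through a control peak. That order of the lines therefore cannot be told apart from the selection of genes. The contrast between the antibodies was not shown to differ between the lines (difference of contrasts −0.0254 as deposited, exact permutation p = 0.833, and −0.146 at equal length, p = 0.389). This ratio was chosen after the profile had been seen. Its level depends on the unlike bin sizes inside and past genes, which were the same for both antibodies. Around the start, 58.5% and 58.1% of the promoter coverage of isolated genes lay on the downstream side for Ser5P and 60.0% and 59.0% for Ser2P, a difference of 1.17 points.

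**Figure D2:**
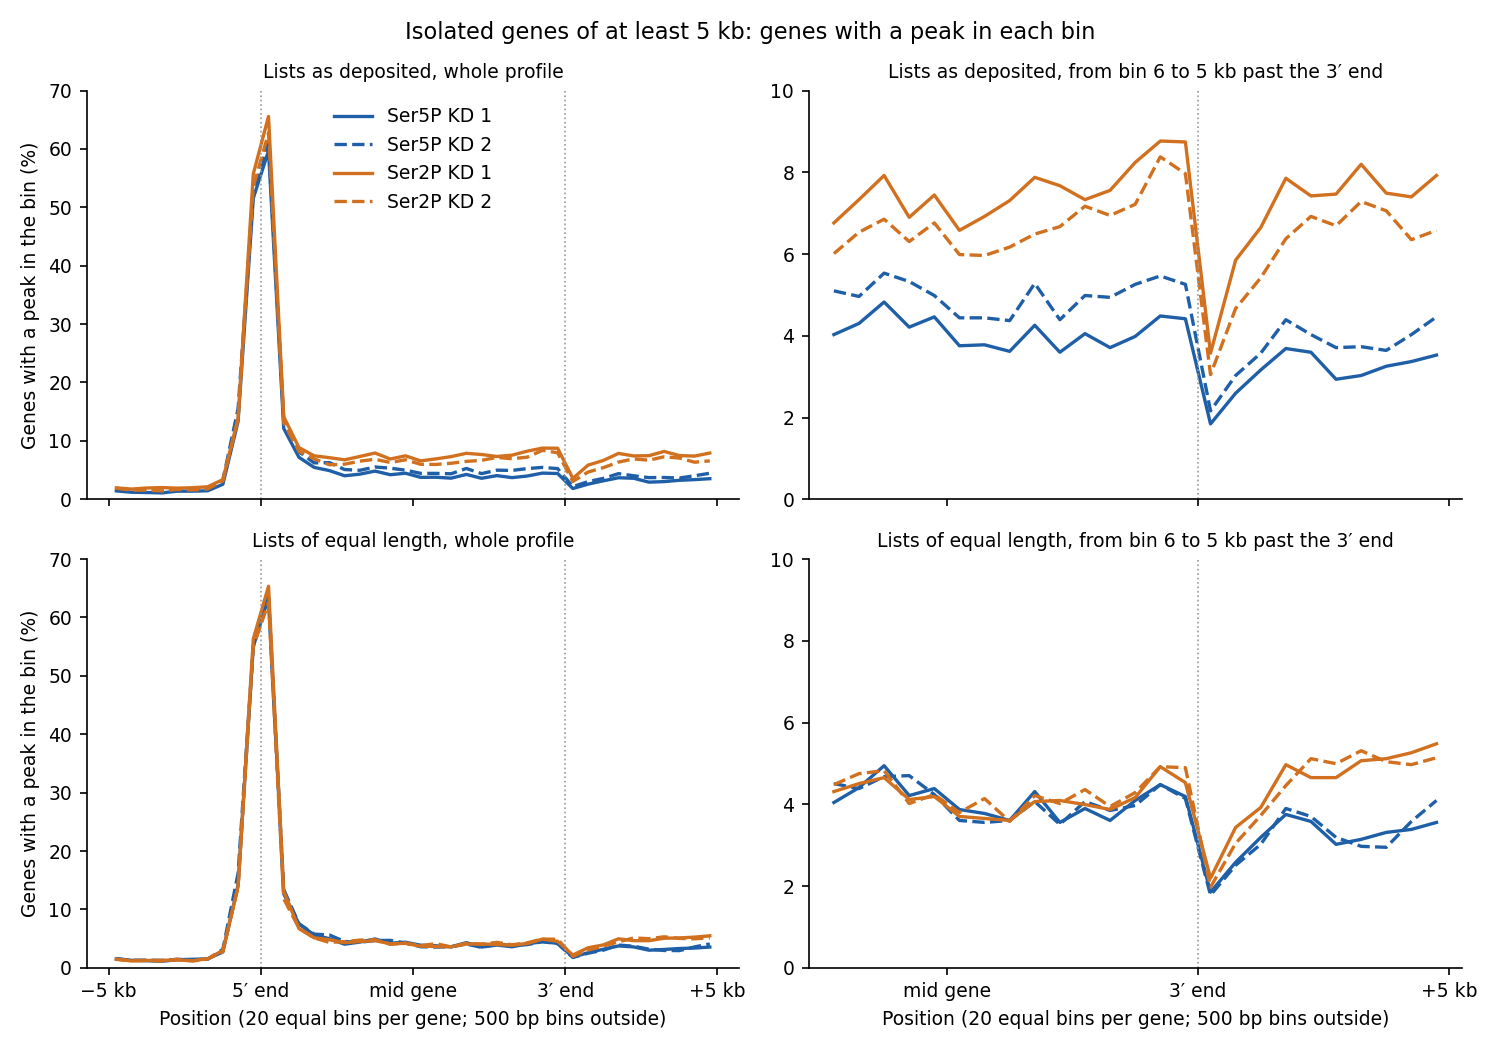
Share of isolated genes of at least 5 kb with a peak in each bin (%, vertical axis) against position from 5 kb before the 5′ end to 5 kb past the 3′ end, for the 4 KD libraries, with lists as deposited (top) and of equal length (bottom); right panels enlarge the part from bin 6. With equal lists the 2 Ser2P lines are farthest from the 2 Ser5P lines past the 3′ end, at 5.07% and 5.31% against 3.14% and 2.97% between 3000 and 3500 bp.

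Merging overlapping peaks of the 4 lists gave 45133 regions. All 4 libraries had a peak in 14806 of them (32.8%), both Ser2P and neither Ser5P library in 3181 (7.05%), and both Ser5P and neither Ser2P library in 625 (1.38%). With 21574 peaks in each list, 32519 regions formed, and the counts were 13519 shared (41.6%), 1304 with Ser2P only (4.01%) and 1094 with Ser5P only (3.36%). The excess of Ser2P-only regions was far smaller at equal length, while their places differed at both lengths. Past 3′ ends lay 8.39% of Ser2P-only regions and 3.52% of Ser5P-only regions as deposited, and 8.67% and 3.38% at equal length. Promoter windows held 7.04% of Ser2P-only against 12.6% of Ser5P-only regions, and 47.3% of shared regions. Ser2P-only regions had a median distance of 24109 bp to a 5′ end and 10577 bp to a 3′ end, and Ser5P-only regions 12916 and 19913 bp. Shared regions were wider, with a median of 905 bp against 508 and 505 bp.

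The Ser5P-only regions of highest fold in the authors' lists lay outside protein-coding genes in 4 of 5 cases. At chr8:52336736-52337087 the folds were 24.7 and 26.3 over 347 and 352 bp, with Ser5P also covering 341 and 343 bp in the controls and Ser2P covering none in any library; the nearest gene start is more than a megabase away. A region inside Stx3, a syntaxin gene of vesicle fusion, at chr19:11800541-11801125, had folds of 11.9 and 10.5, and here both Ser2P controls did have a peak, of 237 and 243 bp. Among Ser2P-only regions, chr17:70963658-70963906 had folds of 16.0 and 12.9, yet both Ser5P controls covered 244 and 248 bp of it. A region inside Epb41, which encodes protein 4.1 of the red-cell skeleton, at chr4:132048693-132049405, had folds of 8.38 and 10.5 and was covered by 0 and 219 bp in the Ser5P controls. A region at the promoter of Cldnd1, chr16:58727768-58728328, had folds of 8.08 and 7.85. Absence of a peak in 2 lists was thus in several cases not repeated in the same antibody's control lists.

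Genes were then asked which of the marks they carried, in 21535 protein-coding genes and 3 windows: the promoter, the body from 1000 bp inside the start to the 3′ end, and the 3′ window of 3000 bp past the end. A window counted as marked with at least 200 bp covered, and as single-mark when both libraries of one antibody were marked and both of the other had 0 bp. At promoters, 8096 genes carried both marks in all 4 libraries (37.6%), 63 carried Ser5P alone (0.293%) and 190 carried Ser2P alone (0.882%). Over gene bodies the counts were 4165 with both (19.3%), 100 with Ser5P alone (0.464%) and 527 with Ser2P alone (2.45%). In the 3′ window they were 1762 with both (8.18%), 31 with Ser5P alone (0.144%) and 383 with Ser2P alone (1.78%). Sharing was the rule at promoters, and as deposited Ser2P-only genes outnumbered Ser5P-only genes in each window. Over the 3 windows together 10711 genes carried both (49.7%), 65 Ser5P alone (0.302%) and 325 Ser2P alone (1.51%).

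At equal list length only the 3′ window kept more Ser2P-only than Ser5P-only genes among the 3 windows. The counts of Ser5P alone and Ser2P alone were 120 and 108 at promoters (0.557% and 0.502%), 257 and 187 in bodies (1.19% and 0.868%), and 65 and 164 in the 3′ window (0.302% and 0.762%, where 7.65% carried both). Over the 3 windows together they were 178 and 148 (0.827% and 0.687%). Of the 383 genes with Ser2P alone in the 3′ window as deposited, 259 (67.6%) had Ser5P at the promoter in both libraries, and in 253 no other protein-coding gene or promoter window reached into the 3′ window. Their median length was 34.0 kb, against 11.1 kb for the 31 with Ser5P alone and 14.4 kb for those with both.

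**Figure D3:**
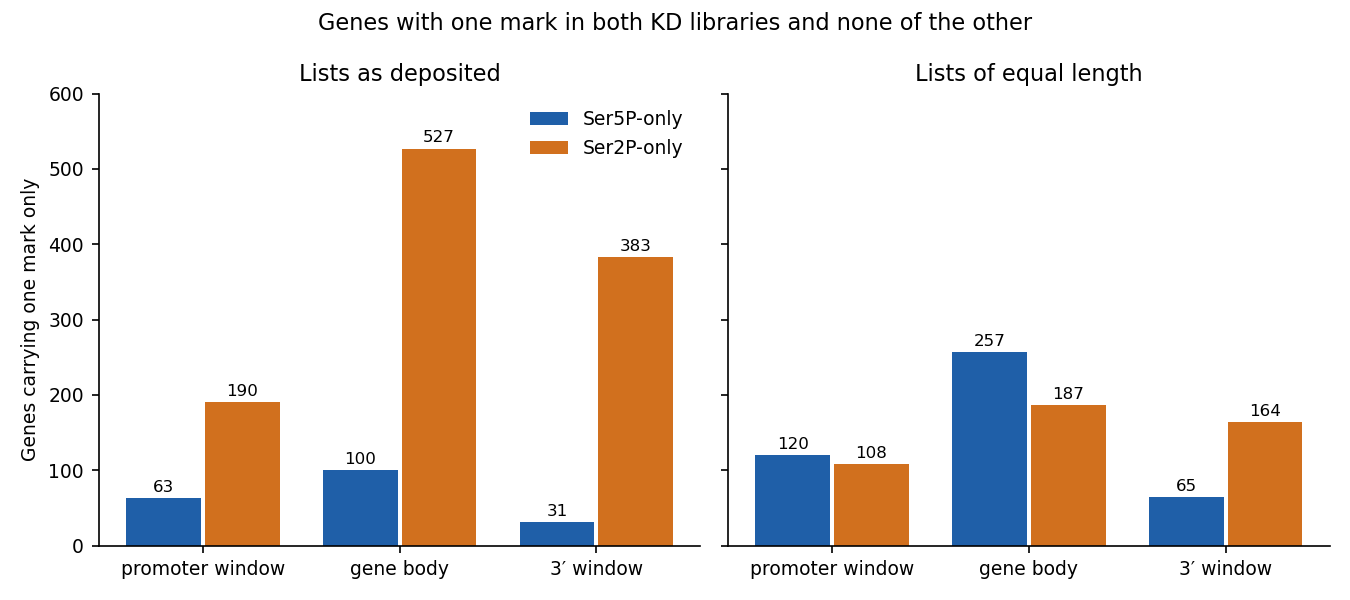
Number of genes (vertical axis) with one mark in both KD libraries and 0 bp of the other, by window, with lists as deposited (left) and of equal length (right). On the right, Ser5P-only and Ser2P-only genes number 120 and 108 at promoters, 257 and 187 in bodies and 65 and 164 in the 3′ window.

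Genes with promoter Ser5P in both libraries numbered 8390, of which 96.5% also carried Ser2P there. Downstream of these promoters, 50.0% of the 8390 had Ser2P in both libraries over the body or 3′ window and 40.05% had Ser5P there. At equal length those shares were 39.3% and 38.6%. Among isolated genes, 13.4% of 2771 with promoter Ser5P had Ser2P in the 3′ window and 6.50% had Ser5P there, and 8.25% and 6.28% of 2740 at equal length. All 3 windows were marked by Ser2P in 703 genes and by Ser5P in 394, and in 412 and 371 at equal length.

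The genes with the broadest Ser5P at the start and Ser2P past the end were marked by both antibodies at both places. Ptbp1, a splicing repressor gene at chr10:79854432-79864435, had 1225 and 1187 bp of promoter Ser5P, and its 3′ window held 1632 and 1505 bp of Ser5P against 2239 and 2259 bp of Ser2P. Slc38a2, an amino acid transporter gene at chr15:96687392-96699728, had 1463 and 1310 bp at the promoter, and 846 and 891 bp of Ser5P against 1635 and 2017 bp of Ser2P past the end. In both, every Ser2P value past the end exceeded every Ser5P value. The controls repeated this in Slc38a2, with 423 and 743 against 1298 and 1330 bp, but overlapped in Ptbp1, with 1517 and 1440 against 1803 and 1400 bp, and the Ptbp1 window also holds the end of Plppr3. Eif4a2, an RNA helicase gene of translation initiation whose 3′ window also holds Rfc4, had 1567 and 1404 bp of Ser5P against 1820 and 1707 bp of Ser2P past its end, but the control order was the reverse, at 1065 and 1092 against 652 and 322 bp. Stip1, a co-chaperone gene with Fermt3 and its promoter in the 3′ window, had 1947 and 2490 against 2170 and 2053 bp, which overlapped. In Azin1, an antizyme inhibitor gene, the values were 554 and 1767 against 2093 and 1860 bp. Icam1 and the neighbouring Icam4, adhesion molecule genes, also met the rule, but the 3′ window of Icam1 holds Icam4 and the promoter of Icam5, so their values are partly the same peaks. Cdk5r1, which encodes an activator of the kinase CDK5 and has Myo1d in its 3′ window, had 1665 and 2056 bp of Ser5P against 2099 and 2072 bp of Ser2P.

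Promoters with Ser5P and no Ser2P were led by replication-dependent histone genes, which encode the core and linker histones made in S phase. Of 56 such genes in the list, 52 had promoter Ser5P in both libraries (39.0% of all genes did), 34 had promoter Ser2P in both (40.7% of all genes), and 11 were among the 63 Ser5P-only promoters. These 11 were H2ac4, H2ac10, H2ac13, H2ac19, H2bc13, H3c2, H3c4, H3c10, H3c11, H4c6 and H4c18. The median promoter coverage over the 56 genes was 1082 and 1098.5 bp for Ser5P against 486 and 429 bp for Ser2P in the KD line, and 1077.5 and 1038.5 against 320.5 and 161 bp in the controls. Over the 8390 genes with promoter Ser5P the medians were 776.5 and 822 bp for Ser5P and 825 and 785 bp for Ser2P, so histone promoters stood above other marked promoters in Ser5P and below them in Ser2P. In 52 histone genes both Ser5P values exceeded both Ser2P values and in none was the reverse seen, in the KD line and again in the controls, whereas 20.8% of the 8390 genes had Ser5P above and 20.2% had Ser2P above. The direction held for each family: 5 of 5 H1, 13 of 15 H2A, 13 of 13 H2B, 11 of 12 H3 and 10 of 11 H4 genes. It held in 44 of 47 genes on chromosome 13 and 8 of 9 on chromosome 3. The 4 genes without it, H2ac23, H2ac24, H3c14 and H4c12, had no promoter peak in any of the 4 libraries. The genes are near-identical copies in dense clusters with overlapping windows, so reads may be split among copies and the 56 values are not independent. The list was drawn up with earlier results of these data known.

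H3c2, at chr13:23752345-23752840, had 1149 and 1136 bp of promoter Ser5P and no promoter Ser2P in the KD libraries, and 1153 and 1027 against 0 and 246 bp in the controls. H3c11, at chr13:21782915-21783397, had 828 and 827 bp of Ser5P and no Ser2P in any of the 8 libraries. H2ac4, at chr13:23751088-23751592, had 745 and 779 bp of Ser5P, again with no promoter Ser2P in any library. H2ac13 and H2bc13, a head-to-head pair at chr13:21716412-21716859 and chr13:21715711-21716183, shared 1197 and 1437 bp of Ser5P, and 1 Ser2P control held 249 bp. In all of them the Ser5P and Ser2P values were far apart in both lines. In the list as a whole, 8 of 52 genes tested passed limma's adjusted p of 0.05 with Ser5P higher (H1f1, H2ac4, H2ac11, H2ac13, H2bc11, H2bc13, H3c2 and H3c11), against 0.132% of all promoters tested, and the median difference was 27.3 points of the window against −0.35 points over all genes. None passed when the 4 KD libraries were fitted alone.

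To show what these promoters hold, the 250 bases upstream of the start are printed for Ser5P-only histone genes and for a pair of Ser2P-only genes, from the RefSeq promoter table for GRCm38.p6, 5′ to 3′ on the gene's strand. Capitals mark TATAAA, the core of the TATA box, and CCAAT, the CCAAT box, on either strand (TTTATA and ATTGG in reverse).
H3c2, chr13:23752095-23752344, plus strand: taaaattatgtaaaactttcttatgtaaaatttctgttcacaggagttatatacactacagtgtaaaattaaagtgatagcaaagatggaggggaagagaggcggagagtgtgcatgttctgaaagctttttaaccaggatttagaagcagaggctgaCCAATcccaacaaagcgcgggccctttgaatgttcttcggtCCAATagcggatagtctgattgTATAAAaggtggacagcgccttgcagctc
H3c11, chr13:21783398-21783647, minus strand: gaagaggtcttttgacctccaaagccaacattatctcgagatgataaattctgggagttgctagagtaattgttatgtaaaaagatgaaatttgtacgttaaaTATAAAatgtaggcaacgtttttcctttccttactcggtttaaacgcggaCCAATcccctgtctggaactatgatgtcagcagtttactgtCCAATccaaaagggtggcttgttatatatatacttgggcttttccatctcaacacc
H2ac4, chr13:23750838-23751087, plus strand: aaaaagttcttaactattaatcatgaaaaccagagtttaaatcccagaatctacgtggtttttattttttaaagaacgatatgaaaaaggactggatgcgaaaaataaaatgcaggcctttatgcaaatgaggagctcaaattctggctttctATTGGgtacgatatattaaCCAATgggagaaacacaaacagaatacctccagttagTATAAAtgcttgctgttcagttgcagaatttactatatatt
H2ac13, chr13:21716162-21716411, plus strand: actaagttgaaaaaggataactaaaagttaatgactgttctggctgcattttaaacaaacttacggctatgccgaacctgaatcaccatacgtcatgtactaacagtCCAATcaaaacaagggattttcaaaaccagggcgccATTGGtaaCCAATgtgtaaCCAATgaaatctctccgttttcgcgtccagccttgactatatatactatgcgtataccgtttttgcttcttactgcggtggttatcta
Pfn2, chr3:57847758-57848007, minus strand: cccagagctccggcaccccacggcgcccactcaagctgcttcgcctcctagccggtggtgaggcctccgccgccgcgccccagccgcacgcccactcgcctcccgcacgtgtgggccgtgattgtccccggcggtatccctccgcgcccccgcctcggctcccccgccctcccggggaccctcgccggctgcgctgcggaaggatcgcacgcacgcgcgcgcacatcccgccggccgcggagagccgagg
Fez2, chr17:78418153-78418402, minus strand: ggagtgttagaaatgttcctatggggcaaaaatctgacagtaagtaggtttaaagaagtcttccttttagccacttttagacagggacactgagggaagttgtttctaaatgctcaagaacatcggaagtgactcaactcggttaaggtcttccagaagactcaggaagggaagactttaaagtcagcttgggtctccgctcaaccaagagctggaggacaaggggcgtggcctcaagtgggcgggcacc
The H2bc13 promoter lies on the other strand of the H2ac13 sequence and is not repeated. Among 10583 promoters in the table that lie at the outer gene start, TATAAA occurred in 15.7% on either strand and CCAAT in 37.4%. Among 50 histone promoters the shares were 46.0% and 82.0%, and among 3760 promoters marked by both antibodies 6.09% and 40.9%. Of the 34 Ser5P-only promoters with a sequence 35.3% held TATAAA, and 21.7% of the 23 that are not histone genes. Of 70 Ser2P-only promoters 11.4% held it. The erythroid GATA-type motif AGATAA occurred in 10.5% of all, 5.05% of both-marked, 17.6% of Ser5P-only and 5.71% of Ser2P-only promoters. Of the 6 Ser5P-only promoters with AGATAA, 4 were histone promoters, among them the overlapping pair H2ac13 and H2bc13. Of the 23 Ser5P-only promoters that are not histone genes 8.7% held AGATAA, which is below the share of all promoters. The median number of CG dinucleotides was 17 in both-marked promoters, 9 in Ser5P-only, 9.5 in Ser2P-only and 7 in all. These matches are descriptions of the letters, counted anywhere in the 250 bases, and their distance to the start was not considered. A match is thus not shown to be a TATA box or CCAAT box in use.

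**Figure D4:**
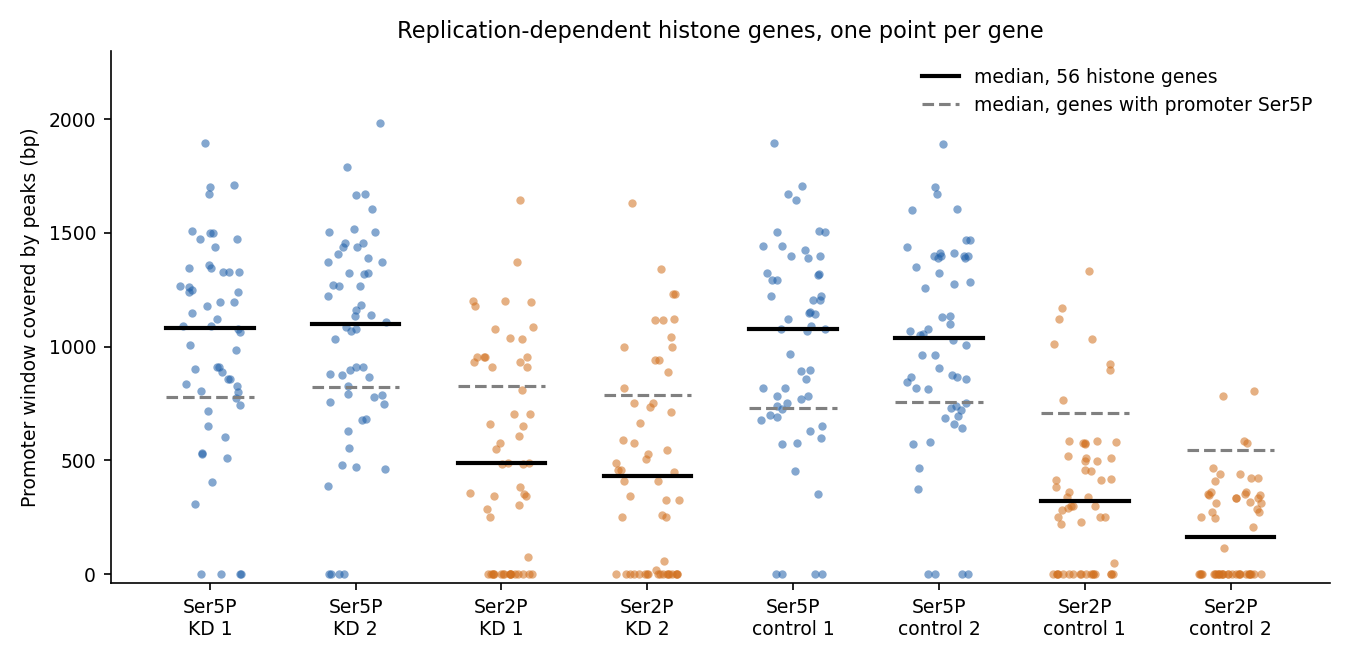
Promoter window covered by peaks (bp, vertical axis) in each of the 8 libraries, one point per replication-dependent histone gene (56 genes); black bars are their medians and dashed grey bars the medians of the 8390 genes with promoter Ser5P in both KD libraries. Histone medians lie above the grey bars in all 4 Ser5P libraries (1038.5 to 1098.5 bp) and below them in all 4 Ser2P libraries (161 to 486 bp).

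Other promoters with Ser5P alone included Zfp608, a zinc-finger gene, with 771 and 670 bp in the KD line and 285 and 466 bp in the controls, where Ser2P was also at 0. Fosb, an AP-1 subunit induced as an immediate-early gene, had 473 and 375 bp, with 410 and 372 bp of Ser5P and no Ser2P in the controls. Ier3, another immediate-early gene, had 382 and 494 bp, with 694 and 661 bp of Ser5P and no Ser2P in the controls. Hnrnpl, a splicing regulator, had 307 and 392 bp, and 455 and 355 bp in the controls, again without Ser2P. In these 4 genes the KD pattern recurred in the control line. Over all 63 genes it recurred in 23, while 26 had some Ser2P in a control library, and 31 carried Ser2P in both KD libraries farther downstream.

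Promoters with Ser2P alone had other genes and less recurrence. Pfn2, which encodes an actin-binding profilin, had 1143 and 1007 bp of Ser2P and no Ser5P in the KD line, and 610 and 0 bp of Ser2P with no Ser5P in the controls. Ppp3cc, a calcineurin catalytic subunit gene, had 876 and 1175 bp, with 281 and 602 bp in the controls and no Ser5P. Slc30a1, a zinc exporter gene, had 953 and 779 bp, with 0 and 209 bp in the controls. These 3 genes had Ser5P at 0 in all 4 of its libraries. Marchf8, a ubiquitin ligase gene, had 840 and 878 bp, but 1 Ser5P control held 378 bp. Fez2 had 810 and 805 bp, and the Ser5P controls 352 and 639 bp. Coq2, a gene of ubiquinone synthesis, had 789 and 858 bp, and the Ser5P controls 232 and 292 bp. Of the 190 genes 20 had the same call in the controls and 78 had Ser5P in a control library. Ser2P control 2 was the shallowest of the 8 libraries, with a background pileup of 0.438 and 20793 peaks. A shallow Ser2P list makes a Ser2P-only call harder to repeat and a Ser5P-only call easier, in every window. The part of depth in recurrence was not tested.

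Over gene bodies, Ser5P alone was broadest in Igdcc3, at chr9:65141154-65187031, with 940 and 947 bp in the KD line and 941 and 1048 bp of Ser5P against 658 and 0 bp of Ser2P in the controls. Stx3 had 820 and 1005 bp, from the region described above. P4hb, a protein disulfide isomerase gene, had 664 and 735 bp, Tada2a, a gene of histone acetyltransferase complexes, 721 and 1165 bp, Flnc, a filamin gene, 753 and 638 bp, and Patl1, an mRNA decay gene, 614 and 1075 bp. Only in Flnc among these 6 did the controls repeat the call, with 977 and 236 bp of Ser5P and no Ser2P. Ser2P alone was broadest in 6 other bodies. Osbpl8, a lipid transfer gene of 133 kb, had 1735 and 1942 bp, Phkb, a phosphorylase kinase subunit gene of 223 kb, had 1498 and 1959 bp, and Slc18a2, a monoamine transporter gene of 35.1 kb, had 1574 and 2692 bp. Tdrd3 had 1519 and 1373 bp, Ppp4r3b 1243 and 1412 bp, and Stxbp5, which encodes the syntaxin-binding tomosyn, 1232 and 1266 bp. Each of these 6 bodies had a Ser5P peak in a control library except that of Tdrd3, whose call was lost at equal list length. The calls recurred in the controls in 11 of 100 genes with Ser5P alone and 44 of 527 with Ser2P alone.

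Past the 3′ end, Ser2P alone was led by Ints7, an Integrator subunit gene at chr1:191575540-191623690, with 1885 and 1569 bp. Its Ser5P was at 0 in both KD libraries but at 1314 and 485 bp in the controls, so this call did not recur. Dicer1, the microRNA-processing nuclease gene at chr12:104687740-104751968, had 1115 and 1493 bp of Ser2P, with 1528 and 352 bp in the controls and Ser5P at 0 throughout. Pus7, a pseudouridine synthase gene, had 1072 and 1122 bp, with 504 and 257 bp in the controls and Ser5P again at 0. Zap70, which encodes a kinase of T cell receptor signalling, had 975 and 936 bp, with 972 and 141 bp in the controls and no Ser5P, although its promoter carried no peak in any library. Tbk1, an innate immunity kinase gene, had 1017 and 943 bp, with 478 and 0 bp in the controls. Ndel1, a dynein regulator gene, had 1095 and 1010 bp, with 311 and 0 bp of Ser2P and 0 and 404 bp of Ser5P in the controls. Among these 6 genes Ser5P was at 0 in all 4 of its libraries in Dicer1, Pus7, Tbk1 and Zap70. The calls for Dicer1 and Ndel1, and those for Bnip3l and Rtf1 below, were lost when lists were cut to equal length.

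Ser5P alone past the 3′ end often fell where another gene lies. The window of H2ac4 (901 and 922 bp) holds H3c2 and its promoter, and that of H2ac7 (460 and 588 bp) holds H3c4 and the H2bc7 promoter. Mri1, a methionine salvage gene, had 449 and 624 bp and shares its window with D8Ertd738e. Rnpepl1 (463 and 636 bp) and Impact (377 and 388 bp) had no other gene there, and the Rnpepl1 call was lost at equal list length. In these 5 genes the Ser2P KD values were 0. In 15 of the 31 genes no other protein-coding gene or promoter reached into the window, and in 3 the controls repeated the call.

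**Figure D5:**
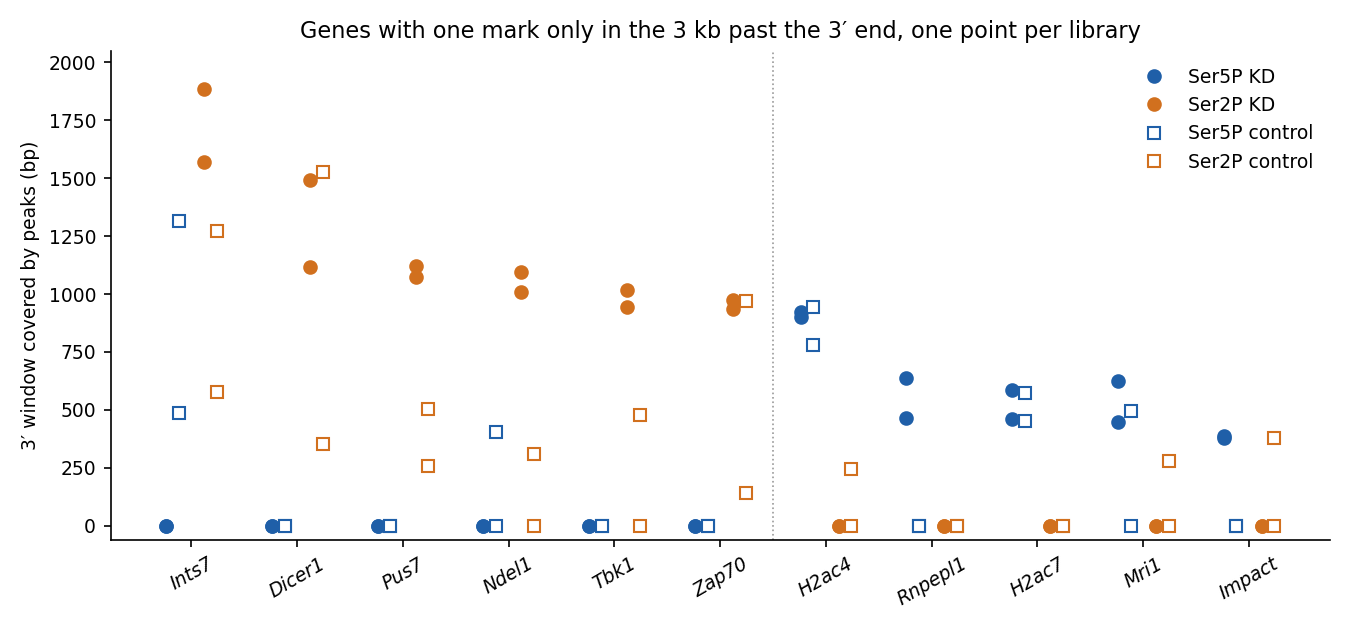
Bp covered by peaks in the 3000 bp past the 3′ end (vertical axis) for the 6 leading Ser2P-only (left of the dotted line) and 5 of the leading Ser5P-only genes, one point per library; filled circles are KD and open squares control libraries. The KD points separate by the selection rule, and the open squares show where the controls do not, as in Ints7 with Ser5P at 1314 and 485 bp.

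The functional lists were read against all genes. In the 3′ window both Ser2P values exceeded both Ser5P values in 5.19% of all genes (1117) and the reverse held in 1.93% (416). Only 4713 of the 21535 genes had any coverage there. Most lists were covered more often, so their counts are better read against 1117 and 416 of 4713. Among 24 erythroid and haematopoietic regulators (13 covered) these counts were 5 and 0, and among 23 red-cell membrane and maturation genes (7 covered) 4 and 0. Among 12 MLL1 complex genes (5 covered) they were 3 and 0, and among 34 CTD kinases, pausing and elongation factors (15 covered) 5 and 1. Among 30 splicing factor genes (23 covered) they were 8 and 2, and among 43 DNA replication and cell cycle genes (23 covered) 6 and 2. Among 24 factors of 3′ end processing (16 covered) they were 2 and 0. In other lists the counts were about even, with 10 and 9 of 72 ribosomal protein genes (48 covered) and 3 and 3 of 38 immediate-early and stress genes (13 covered). Respiratory chain genes gave 2 and 2 of 40 (13 covered) and globin and haem genes 1 and 1 of 22 (9 covered). At equal list length 3703 genes had coverage there, and the counts were 746 and 454 over all genes. They were 5 and 0 in the erythroid regulators, 3 and 0 in the red-cell genes and 3 and 0 in the MLL1 complex genes. The CTD kinases and elongation factors gave 4 and 1, the splicing factors 8 and 1 and the 3′ end processing factors 2 and 0. The counts were 2 and 3 in the DNA replication genes, where the order turned, and 8 and 12 in the ribosomal protein genes. Immediate-early genes gave 3 and 2, respiratory chain genes 0 and 3 and globin and haem genes 1 and 1. The median difference in covered share of the 3′ window, Ser5P minus Ser2P, was −3.32 points over all genes with coverage there, −5.47 points in the erythroid regulators, −7.17 in the MLL1 complex genes and −5.05 in the CTD kinases and elongation factors. At equal length these medians were −1.05, −5.15, −7.17 and −3.63 points. Respiratory chain genes gave −5.87 points as deposited, DNA replication genes −4.78, red-cell genes −4.43 and splicing factors −4.27. Those of 3′ end processing gave −3.84, globin and haem genes −3.63, immediate-early genes −3.23 and ribosomal protein genes −0.458. At equal length, in the same order, they were −2.55, −3.9, −4.42, −1.97, −3.51, −2.64, 2.58 and 1.76 points. A negative median was thus not particular to the lists named first. Histone genes lay on the other side of 0, at 8.5 points, with 32 genes higher for Ser5P and 2 for Ser2P, at both list lengths. These genes are so short that the 3′ window overlaps their own promoter window, and it can also hold a neighbouring histone promoter. In H2ac4, Ser5P covered 745 and 779 bp at the promoter and 901 and 922 bp past the end, but 1491 and 1478 bp together. Promoter peaks are thus counted again in this window, and the value is not one of gene ends alone.

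Runx1, a master regulator of blood cell development at chr16:92601466-92826074, had 1215 and 908 bp of Ser2P past its end and no Ser5P, with 7925 and 7696 bp of Ser2P over its body against 4048 and 3437 bp of Ser5P. Ikzf1, the Ikaros gene, had 1472 and 1588 bp of Ser2P past its end against 0 and 507 bp of Ser5P. In both genes the 2 antibodies did not overlap there, and limma's adjusted p was under the threshold for both and for no other erythroid regulator, in 2 of 11 tested against 2.65% of all 3′ windows with Ser2P higher. Neither passed when the 4 KD libraries were fitted alone, where no gene did. Cbfa2t3, a corepressor gene that partners the erythroid factors, had the largest body coverage of the list, with 9235 and 11083 bp of Ser5P against 15754 and 14875 bp of Ser2P. In the controls those body values were 16411 and 18444 against 17606 and 11295 bp and overlapped. Zfpm1, the GATA cofactor FOG1, had 6235 and 7454 against 9982 and 8631 bp over its body, and Bcl11a, a fetal globin repressor gene, 2972 and 3850 against 7455 and 4837 bp. The control bodies overlapped in both, with 6527 and 6637 against 9850 and 3760 bp in Zfpm1 and 3734 and 4319 against 5877 and 3046 bp in Bcl11a. Bnip3l, a mitophagy receptor gene of red-cell maturation, carried Ser2P alone past the end, at 469 and 705 bp. Its controls had no Ser2P there and 0 and 311 bp of Ser5P.

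Among globin and haem genes, Ftl1, the ferritin light chain gene at chr7:45457944-45459886, had 1029 and 1110 bp of promoter Ser5P against 0 and 243 bp of Ser2P, with the controls at 984 and 970 against 346 and 211 bp. Ftl1 was the only called promoter of 13 tested in that list, against 0.132% of all promoters tested with Ser5P higher. No promoter passed when the 4 KD libraries were fitted alone. Its promoter lies in the 3′ window of Bax, an apoptosis effector gene, and the same peaks are counted in that window (1325 and 1365 against 284 and 243 bp). Tfrc, the transferrin receptor gene, had promoter values of 857 and 852 against 760 and 762 bp. Both marks were present at the promoter in all 4 libraries in 16 of 24 erythroid regulators and 10 of 22 globin and haem genes.

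Of 12 MLL1 complex genes 11 had both marks at the promoter in all 4 libraries. Hcfc1, at chrX:73942792-73966995, had the broadest, with 1833 and 1885 bp of Ser5P and 1880 and 1895 bp of Ser2P. Past its end it had 698 and 653 against 1172 and 1089 bp, which passed limma's adjusted p. It was the only one of 5 tested, against 2.65% of all 3′ windows with Ser2P higher, and no gene passed with the 4 KD libraries fitted alone. In the controls the values past the Hcfc1 end were 651 and 607 against 625 and 508 bp and overlapped. Wdr5 had 579 and 587 against 587 and 645 bp past its end, and Men1 485 and 209 against 532 and 445 bp. Only in Hcfc1 among these 3 were the antibodies apart in the KD line: the Men1 values overlapped, in a window that holds Map4k2, and those of Wdr5 met at 587 bp.

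Among genes of the transcription machinery, Polr2a, which encodes Rpb1 itself, at chr11:69733997-69758633, stood out at the promoter with 1497 and 1577 bp of Ser5P against 626 and 664 bp of Ser2P. Cdk12, a Ser2 kinase gene, carried both marks at the promoter and Ser2P alone past its end, at 1230 and 602 bp. Its controls had 525 and 0 bp of Ser2P there and no Ser5P. Rtf1, a Paf1 complex elongation factor gene, had Ser2P alone past its end too, at 334 and 350 bp, and no peak there in any control. Supt5, the DSIF subunit Spt5, had 651 and 612 against 590 and 630 bp past its end, which overlapped.

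Immediate-early and stress genes leaned to Ser5P at promoters. In 17 of 38 (30 covered) both Ser5P values exceeded both Ser2P values and in 3 the reverse held. All genes gave 8.21% and 9.89%, which are 1768 and 2129 genes, with 10043 covered. The median difference was 7.41 points, and none of 30 tested passed limma's adjusted p (smallest adjusted p = 0.0636). At limma's unadjusted p under 0.05 there were 7 with Ser5P and 1 with Ser2P higher, against 368 and 636 of all 9814 promoters tested. Of 72 cytosolic ribosomal protein genes (69 covered) 24 had Ser5P above Ser2P at the promoter and 5 the reverse, with a median difference of 2.90 points. None of 70 tested passed, with 6 and 0 at an unadjusted p, beside the same 368 and 636 of 9814. Rpl38 and Rpl8 carried Ser5P alone in the body, at 384 and 504 bp and at 417 and 392 bp, and Rps23 Ser5P alone past the end, at 269 and 418 bp. In the controls the Rpl38 body had 312 and 379 bp of Ser5P against 0 and 520 bp of Ser2P. The Rpl8 body had 0 and 321 bp of Ser5P and no Ser2P there, and Rps23 had no peak past its end. At promoters respiratory chain genes gave 6 and 4 of 40 (36 covered), splicing factors 10 and 5 of 30 (28 covered) and DNA replication genes 7 and 5 of 43 (41 covered).

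At the locus named in the series, Myb itself, at chr10:21124930-21160984, had 339 and 445 bp of promoter Ser5P against 1081 and 1005 bp of Ser2P in the KD line. In the controls the values were 334 and 432 against 366 and 215 bp, which overlapped. Over the Myb body the KD values were 690 and 694 against 545 and 446 bp, with more Ser5P in both. Its neighbours Hbs1l and Ahi1 had overlapping promoter values of 458 and 522 against 446 and 502 bp, and of 639 and 723 against 691 and 723 bp.

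A test across genes compared the covered share of each window with limma, 8 libraries sharing one estimate of the spread. At promoters 13 of 9814 genes passed an adjusted p of 0.05 with Ser5P higher (0.132%) and 11 with Ser2P higher (0.112%). Over bodies, before any test, both Ser5P values exceeded both Ser2P values in 743 of all genes (3.45%) and the reverse held in 2532 (11.8%), which became 1206 and 1329 at equal list length. In bodies 18 of 8403 passed with Ser5P higher (0.214%) and 82 with Ser2P higher (0.976%), and in the 3′ window 16 of 3928 (0.407%) and 104 (2.65%). As deposited, Ser2P calls outnumbered Ser5P calls in bodies and 3′ windows. At equal list length the body calls turned, to 72 with Ser5P and 42 with Ser2P higher, while the 3′ calls were 38 and 63. Without the coverage filter the 3′ calls were 2 and 0. All of these counts fell to 0 when the 4 KD libraries were fitted alone, where unadjusted counts were 451 and 693 at promoters, 195 and 936 in bodies and 128 and 569 in 3′ windows. Leaving out Ser5P KD 1, Ser5P KD 2, Ser2P KD 1 or Ser2P KD 2 left 0 calls at promoters and 3′ windows and at most 2 with Ser5P higher and 16 with Ser2P higher in bodies. Of the calls, 4 of 24 at promoters, 73 of 100 in bodies and 74 of 120 in 3′ windows rest on genes with coverage in only 2 of the 8 libraries.

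The smallest adjusted p at promoters with Ser5P higher belonged to Polr2a (44.6 ± 3.44 points, SE, limma adjusted p = 0.0357), followed by H3c2, H2ac13 with H2bc13, and H3c11. With Ser2P higher they belonged to Ptar1, a prenyltransferase subunit gene (0 and 0 against 768 and 733 bp), Crebrf (538 and 569 against 1245 and 1222 bp), Coq2, Strbp (0 and 0 against 666 and 731 bp) and Irs3 (0 and 0 against 593 and 637 bp). In bodies with Ser5P higher they were Med4, a Mediator subunit gene (591 and 603 against 0 and 0 bp), H2az1, the H2A.Z variant gene (266 and 266 against 0 and 0 bp), Ctnnb1, beta-catenin (548 and 512 against 0 and 0 bp), Ranbp1 and Mdfi. In bodies with Ser2P higher they were Shisa3 (664 and 676 bp, no Ser5P), Leng9, Ctrb1, Slc25a39, a mitochondrial carrier gene (387 and 345 bp), and Rnf112. Past 3′ ends with Ser5P higher they included Bax, Slc35g3 and H2ac4. The Slc35g3 value is that of the Polr2a promoter, which lies in its 3′ window. With Ser2P higher they were Cpeb3, a translational repressor gene at chr19:37019341-37207620 (0 and 328 against 1715 and 1526 bp, −48.6 ± 4.61 points, limma adjusted p = 0.0343), Pik3r1, a PI3-kinase regulatory subunit gene (849 and 1024 bp, no Ser5P), Pus7, Hpcal1 and Wdr18. The 3′ window of Wdr18 overlaps Grin3b and its promoter window, and the H2az1 body overlaps the promoter window of Dnajb14. Among these genes Ptar1, Strbp, Irs3, Med4, Ctnnb1, Ranbp1, Mdfi, Shisa3, Leng9, Slc25a39, Rnf112, Pik3r1, Hpcal1 and Wdr18 were covered in only 2 of the 8 libraries, so they entered the test only through the group where they are high, and their values are a description. At equal list length Coq2 (limma adjusted p = 0.0707) and Ctrb1 (0.735) no longer passed, Coq2 also missed at a −log10 q of at least 5 (0.0642), and Irs3, Mdfi, Shisa3, Rnf112, Pik3r1 and Hpcal1 were not among the genes tested.

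Whether the contrast of the antibodies differed between the lines was tested in the same fit. At promoters and in 3′ windows no gene passed (94 and 784, and 41 and 373, at an unadjusted p under 0.05 with the Ser5P-minus-Ser2P difference higher and lower in the KD line), and in bodies 48 of 8403 passed, 13 higher (0.155%) and 35 lower (0.417%). These 48 fell to 0 when any KD library was left out and to 1 without the coverage filter. Over all genes the contrast shifted towards Ser2P in the KD line, with median differences of −5.37 points at promoters, −0.495 in bodies and −3.44 in 3′ windows. The Ser2P KD libraries had background pileups of 1.12 and 1.03 against 0.779 and 0.438 in the Ser2P controls, and the part of that depth in the shift was not tested.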

How the data were processed

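RNA polymerase II phosphorylation was measured by CUT&Tag in MEL cells, 2 libraries per antibody and line, of which the 4 of the KD line are compared. The submitters' processing notes list MACS2 2.2.7.1, Bowtie2 2.3.5, Picard 2.21.4, cutadapt 2.7, deepTools 3.3.1 and SAMtools 1.9, with the build GRCm38. Neither their settings nor the use of a control library is stated in the labels or file headers. The authors deposited 1 peak list per library, replicates not pooled, with each peak's position, display score, fold enrichment (a ratio to local background), −log10 p and −log10 q. The fold, score and p values are the authors' own and served only to rank or filter peaks. Peak lists hold no read counts, so the depth of sequencing is unknown, and the background pileup that reproduces each list's fold and −log10 p is used as relative depth. A gene without a peak is a gene below the calling threshold of that list.

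Gene ends came from RefSeq (GRCm38.p6) for 21887 protein-coding genes. The strand came from the RefSeq promoter table for 17492, and by symbol or synonym from GENCODE for 3649 and 394, leaving 352 genes out. Overlapping peaks were merged, and bp under peaks were counted in the promoter, body and 3′ windows. Libraries were compared by two-sided exact permutation, and covered shares of windows by limma 3.58.1 (R 4.3.3) with a mean-variance trend and Benjamini-Hochberg adjustment, in genes covered in at least 2 of 8 libraries. The robust option of limma, part of the intended design, was not run. The fits were tested on simulated data. Members and gene lists were chosen with earlier results of these data known. The text names, per window and direction, the 6 single-mark genes with the most covered bp and the 5 genes of smallest limma adjusted p, the 8 genes with most Ser5P at the start and Ser2P past the end, members of each list by the same order, the Myb locus, the 3 widest peaks per antibody and the 5 single-mark regions of highest fold per direction. Predicted genes were passed over, and a few genes that the rule names are not reported here. Other list members given as examples were chosen after their values were seen. Alternatives were equal list lengths, −log10 q of at least 5, other windows and coverage minimums, isolated genes, other limma fits and each KD library left out.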

Additional observations from a re-analysis of the deposited data

Results flagged for a closer look

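Several genes had a contrast between the antibodies that differed between the KD and control lines. By limma's test of that difference in gene bodies, in points of the window covered (Ser5P minus Ser2P in the KD line minus the same in the controls), it was 7.96 for Med4, 3.78 for Ranbp1, 2.04 for Mdfi and 2.03 for Ctnnb1, and −14.4 for Leng9, −13.1 for Shisa3, −8.29 for Rnf112 and −7.78 for Slc25a39 (adjusted p from 0.0251 to 0.0448). All 8 were covered in only 2 of the 8 libraries and entered the test only through the group where they are high, so the values are a description. Line differences in bodies numbered 1 instead of 48 without the coverage filter, and 0 once any KD library was left out.

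In 8 further windows the antibodies stood in opposite order in the lines, without overlap in either, but limma's test of the difference in covered share was not passed by any of them (adjusted p from 0.182 to 0.714). In mean bp it was −483.5 in the Azin1 body, −905.0 past the Cdk5r1 end, −869.5 past the Eif4a2 end, −594.0 in the Gfap body, −1179.0 in the Hcfc2 body, 579.5 at the Impact promoter, −890.5 in the Ndel1 body and −763.5 at the Tada2a promoter. In the Gfap body the values were 0 and 0 bp of Ser5P against 283 and 448 bp of Ser2P in the KD line and 370 and 394 against 307 and 0 bp in the controls. These genes had been named for other reasons, and the Ser2P KD libraries were deeper than the Ser2P controls; the part of depth was not tested.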

How the results depend on the processing

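With lists of equal length, 4 KD lists at a time, Ser5P-only regions numbered 1094 and Ser2P-only regions 1304. Single-mark genes, Ser5P then Ser2P, numbered 120 and 108 at promoters, 257 and 187 in bodies and 65 and 164 in 3′ windows. Peak width turned to −32.25 bp (Ser5P minus Ser2P), the intergenic share to 0.315 points (0.294 with isolated genes only) and the line difference of the promoter share to −0.666 points. The limma calls, Ser5P then Ser2P higher, were 33 and 37 at promoters, 72 and 42 in bodies and 38 and 63 in 3′ windows, with 87 line differences in bodies. With −log10 q of at least 5 there were 1826 Ser2P-only regions, 216 genes with Ser2P alone in the 3′ window, 29 and 56 promoter calls, 36 body and 28 3′ window calls with Ser5P higher, and 82 line differences in bodies and 63 in 3′ windows. A 3′ window of 1000 bp gave 573 genes with both marks, 19 and 85 with one, and 8 and 30 calls. Counting 1 bp as marked gave 52 genes with Ser5P alone in the 3′ window. A promoter of 500 bp each side gave 23 and 62 promoter calls and 29 body calls with Ser5P higher. Isolated genes gave 2655 with both marks, 20 and 69 with one at promoters, 1495, 42 and 175 in bodies and 249, 10 and 159 in 3′ windows. Without the coverage filter, body calls with Ser2P higher were 44, body line differences 1, and 3′ calls 2 and 0. The 4 KD libraries alone gave 0 calls in each window and direction.

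Leaving out each KD library in turn gave 1157 to 3991 Ser5P-only and 4445 to 11021 Ser2P-only regions, and for genes with Ser5P and Ser2P alone 117 to 207 and 306 to 444 at promoters, 218 to 450 and 852 to 1149 in bodies and 61 to 216 and 529 to 968 in 3′ windows; fewer lists make a single-mark call easier by construction. The limma calls were 0 to 0 at promoters and 3′ windows and in the body line differences, 0 to 2 with Ser5P higher and 0 to 16 with Ser2P higher in bodies.

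The labels give the groups the same replicate numbers, but libraries of the same number did not deviate together (correlations from −0.0766 to 0.015 over the windows in the KD line). A fit with the replicate block gave 0 calls in each window and direction and 0 line differences, against 320 and 592, 153 and 685, and 86 and 500 at an unadjusted p under 0.05 in promoters, bodies and 3′ windows.

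Of 60 named single-mark calls, 45 were kept at equal list length and 29 at −log10 q of at least 5. Counting any RefSeq start as a 5′ end, chosen after seeing the data, moved the promoter difference to 8.42 points.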
